A study of Mus musculus with 28 samples.

Results

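The fatty acid synthesis genes described here are 7 lipogenic genes of mouse liver, Fasn, Scd1, Acly, Me1, Thrsp, Srebf1 and Gpam, taken by name with every probe set that the array annotation gives them. They had 9 probe sets, of 12422 on the array that are not controls, and stood among 8251 genes with a symbol of their own. Scd1 had 3 probe sets and each other gene had 1. All 9 lay above the array median on at least 2 arrays and entered the tests, for which 7261 probe sets qualified. The study measured liver RNA of Aag null and wild-type (WT) mice on 28 Affymetrix MG-U74Av2 arrays, a short-oligonucleotide array. Mice were untreated or were sampled after MMS (methyl methanesulfonate), an agent that methylates DNA bases. Aag null liver gave 4 untreated arrays and 3, 2, 4 and 3 arrays at 6, 12, 24 and 48 h after MMS, and WT liver gave 3 untreated arrays and 2, 3, 2 and 2 at those times. Aag (alkyladenine DNA glycosylase) removes methylated bases from DNA. Dose, strain, sex, age, feeding and time of day are not given in the labels used here. Untreated mice are the only controls, so an effect of the treatment procedure cannot be told apart from that of MMS. Nor do the labels say that replicates are separate animals, so the p-values measure the spread between these arrays.

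Liver turns surplus carbohydrate into fat in a chain of steps. Acly (ATP citrate lyase) cleaves citrate to acetyl-CoA, Me1 (malic enzyme) supplies NADPH, Fasn (fatty acid synthase) builds palmitate, Scd1 (stearoyl-CoA desaturase) makes monounsaturated fatty acids, and Gpam (mitochondrial glycerol phosphate acyltransferase) starts triglyceride assembly. Srebf1 encodes the transcription factor SREBP of fatty acid synthesis, which insulin raises in liver and which drives many of these genes, and Thrsp is a small acidic protein that rises with carbohydrate feeding and thyroid hormone.

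Promoter windows are shown for Srebf1, Gpam and Thrsp, which passed in a fit of the MMS responses, and for Fasn, the central enzyme. RefSeq windows on build GRCm38.p6, running 250 bases before to 50 after a start, were found for 6 of the 7 genes, 10 windows in all. None was found for Scd1, of which a probe set also passed. All 4 shown lie on the minus strand, Srebf1 at chr11:60210422-60210721 (the window numbered 3 of its starts), Gpam at chr19:55127189-55127488 (the window numbered 1), Thrsp at chr7:97417501-97417800 and Fasn at chr11:120824498-120824797. Capitals mark CCAAT and GGGCGG, read on either strand.
Srebf1: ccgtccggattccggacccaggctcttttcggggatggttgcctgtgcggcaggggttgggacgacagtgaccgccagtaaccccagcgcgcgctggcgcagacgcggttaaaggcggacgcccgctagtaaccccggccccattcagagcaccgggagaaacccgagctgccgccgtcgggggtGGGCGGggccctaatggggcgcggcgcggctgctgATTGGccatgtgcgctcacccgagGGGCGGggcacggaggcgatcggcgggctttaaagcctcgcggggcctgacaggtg
Gpam: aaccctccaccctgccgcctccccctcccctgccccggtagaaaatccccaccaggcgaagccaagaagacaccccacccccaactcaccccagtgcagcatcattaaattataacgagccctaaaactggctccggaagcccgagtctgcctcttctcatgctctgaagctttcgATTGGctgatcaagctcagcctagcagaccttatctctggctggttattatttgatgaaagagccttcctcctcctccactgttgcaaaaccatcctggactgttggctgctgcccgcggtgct
Thrsp: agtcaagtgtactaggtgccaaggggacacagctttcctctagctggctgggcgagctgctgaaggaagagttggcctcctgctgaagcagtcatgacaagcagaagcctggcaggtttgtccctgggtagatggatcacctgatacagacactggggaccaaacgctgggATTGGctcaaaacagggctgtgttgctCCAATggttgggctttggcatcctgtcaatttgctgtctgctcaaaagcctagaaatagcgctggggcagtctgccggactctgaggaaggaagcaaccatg
Fasn: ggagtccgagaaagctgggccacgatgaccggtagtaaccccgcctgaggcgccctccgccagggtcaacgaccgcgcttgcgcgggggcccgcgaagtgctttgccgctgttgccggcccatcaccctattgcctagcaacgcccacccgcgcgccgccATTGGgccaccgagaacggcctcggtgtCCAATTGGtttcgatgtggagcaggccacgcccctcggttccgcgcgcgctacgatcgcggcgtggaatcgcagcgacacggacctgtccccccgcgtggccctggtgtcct
CCAAT, a box bound by the factor NF-Y, was found on either strand in 7 of the 10 windows, against 37.4% of 32851 promoter windows of the same length. GGGCGG, a GC box, was found in 5 of the 10, against 35.7%. The sterol response element searched, TCACNCCAC, was in none of the 10 windows and in 1.24% of all, and the E-box CACGTG was in none and in 7.15% of all. Thrsp carried CCAAT letters beginning at -79 and -52 from its start, Fasn at -90, -62 and -59 (the last pair overlapping on opposite strands), Gpam at -74 and the Srebf1 window at -30, the last also with GGGCGG at -65 and -6. These matches describe letters only.

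Some arrays stood apart from the rest. The 3 WT untreated arrays and replicates 3 and 4 of Aag untreated liver had hybridization control signals of 10.2 to 11.6 (mean log2 of 9 control probe sets), and the other 23 arrays 6.42 to 9.22. All WT untreated arrays are therefore in the set of 5 high arrays and all MMS arrays in the other, so array set and MMS cannot be told apart in WT liver without the Aag null arrays. The 3' minus 5' difference of Gapdh, a mark of RNA or labelling quality, was 0.63 to 0.92 in the high set and -0.37 to 0.21 in the other. Cyp2b9, a transcript typical of female liver, was 7.73 to 8.22 on replicate 3 of Aag untreated liver and replicates 1 and 2 of Aag null liver at 24 h, and 2.49 to 4.21 on all other arrays. The 2 WT arrays at 6 h correlated with each other at r = 0.836 over all probe sets, and replicate 1 of them with replicate 1 of Aag null liver at 6 h at r = 0.983. All values below are log2 signals after quantile normalisation. Without that step the median of all tested probe sets in the WT responses was 0.12 to 0.15, against 0.02 to 0.05 with it. The WT calls at 6 h were 600 higher and 730 lower, against 953 higher and 430 lower in the values as deposited. Because these are whole-liver samples, fewer cells of a type and less RNA per cell cannot be told apart.

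**Figure D1:**
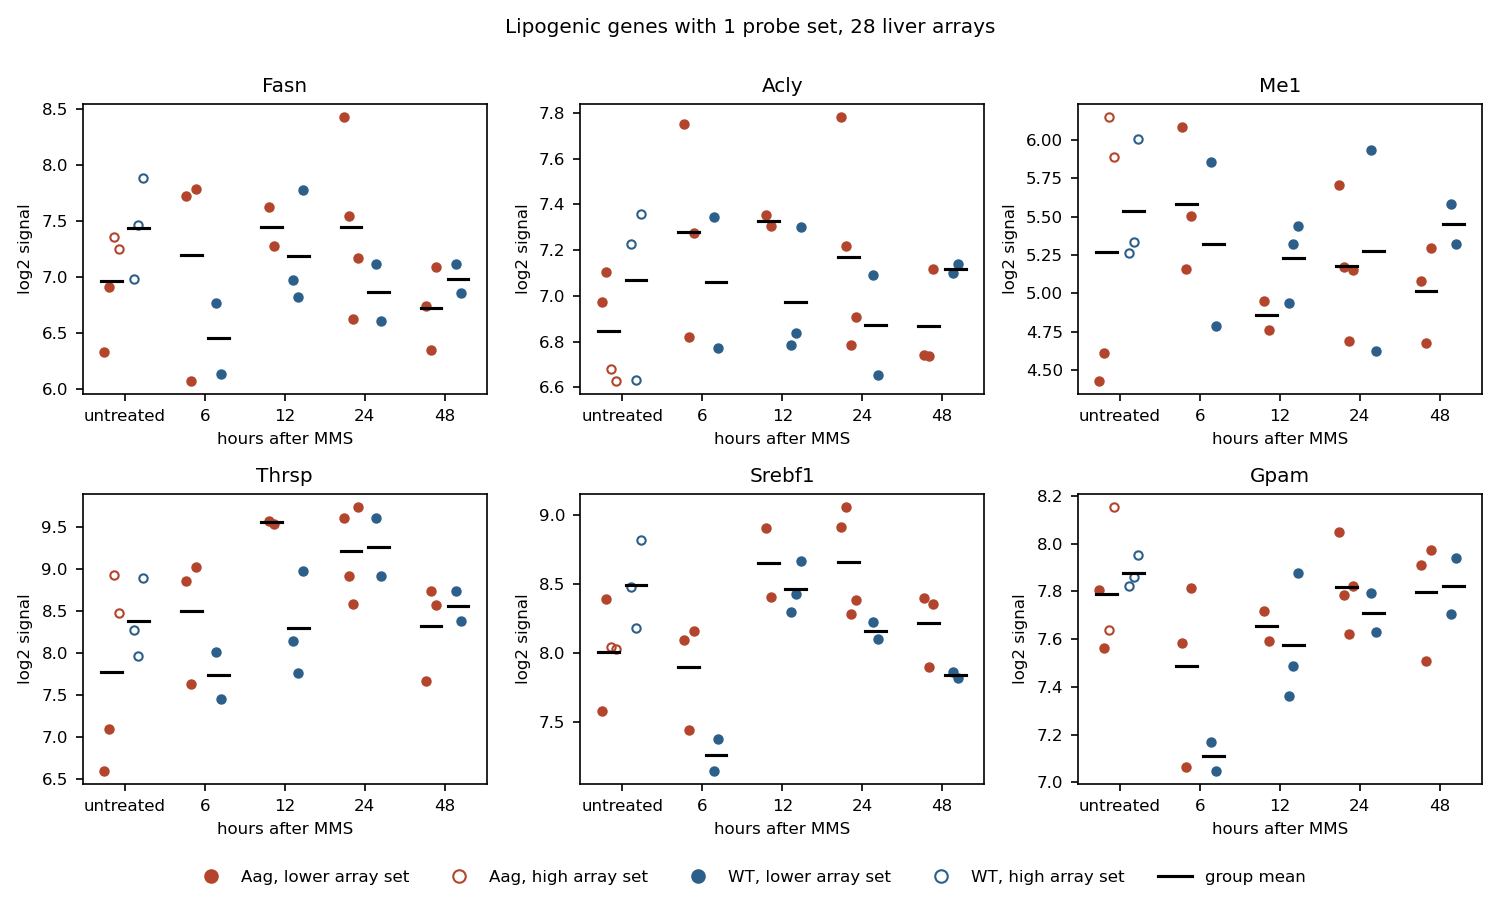
Log2 signal (vertical axis) of the 6 members with 1 probe set on each array, by time after MMS in hours with untreated at the left, Aag null left of WT at each time. Points are arrays, open ones those of the high array set, and lines are group means; Srebf1 and Gpam are lowest in WT liver at 6 h, and the 2 open Aag untreated points of Thrsp lie above the other 2.

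In WT liver Srebf1 and Gpam fell 6 h after MMS, and they were the only members besides a Scd1 probe set to pass the test in any WT response. Srebf1 (93264_at) was 7.15 and 7.38 in WT liver at 6 h, against 8.48, 8.18 and 8.82 in untreated WT liver. Both MMS arrays lay below all 3 untreated ones. Its fitted difference was -1.23 (SE 0.26), or 2.34-fold lower, at an adjusted p of 0.00307. Gpam (101867_at) was 7.17 and 7.05 in WT liver at 6 h, against 7.82, 7.86 and 7.95 untreated, again without overlap. It fell by 0.77 (SE 0.21, adjusted p = 0.0128), or 1.70-fold. Fasn (98575_at) was 6.77 and 6.14 at 6 h, against 6.98, 7.46 and 7.88 untreated, with every MMS array below every untreated one, but its difference of -0.99 (SE 0.47) missed the threshold at an adjusted p of 0.154.

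In all, 3 of the 9 members fell and 0 rose in WT liver at 6 h, where 18.3% of all tested probe sets changed and 10.1% of them fell. The median of the members was -0.77, and that of all tested probe sets 0.02. At 12 h 1 of 9 fell and 0 rose, where 22.3% of all changed and 10.7% fell. At 24 h the count was again 1 fallen and 0 risen, against 15.4% changed and 8.17% fallen among all, and at 48 h again 1 and 0, against 16.6% changed and 9.21% fallen. The median member was -0.26 at 12 h, -0.26 at 24 h and -0.08 at 48 h, with 0.05, 0.04 and 0.03 over all probe sets. By 12 h Srebf1 was 8.30, 8.43 and 8.67, within the range of untreated liver, with a difference of -0.03 (SE 0.24). By 48 h it was 7.87 and 7.82, below all 3 untreated arrays, but its difference of -0.65 (SE 0.26) did not pass (adjusted p = 0.0946). Gpam stood at -0.30, -0.17 and -0.06 against untreated WT liver at 12, 24 and 48 h, none of which passed.

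The 6 h calls of Srebf1 and Gpam rested on how the spread and the array sets were handled. When the fit also held a term for array set, Srebf1 stood at -1.18 (adjusted p = 0.154) and Gpam at -0.56 (adjusted p = 0.397), so that neither passed. Fasn, not called without that term, stood at -0.30 with it (adjusted p = 0.879). Array weights left Srebf1 and Gpam at -1.25 and -0.76 (adjusted p = 0.742 and 0.826), with 0 of all 7261 probe sets called in WT at 6 h. A fit of only the groups compared left the differences as they were, at -1.23 and -0.77 (adjusted p = 0.126 and 0.307), with 30 of 7261 called. Leaving out any single array left Srebf1 between -1.38 and -1.06 and Gpam between -0.83 and -0.71, both still called. The term is estimated from the 4 untreated Aag null arrays alone.

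**Figure D2:**
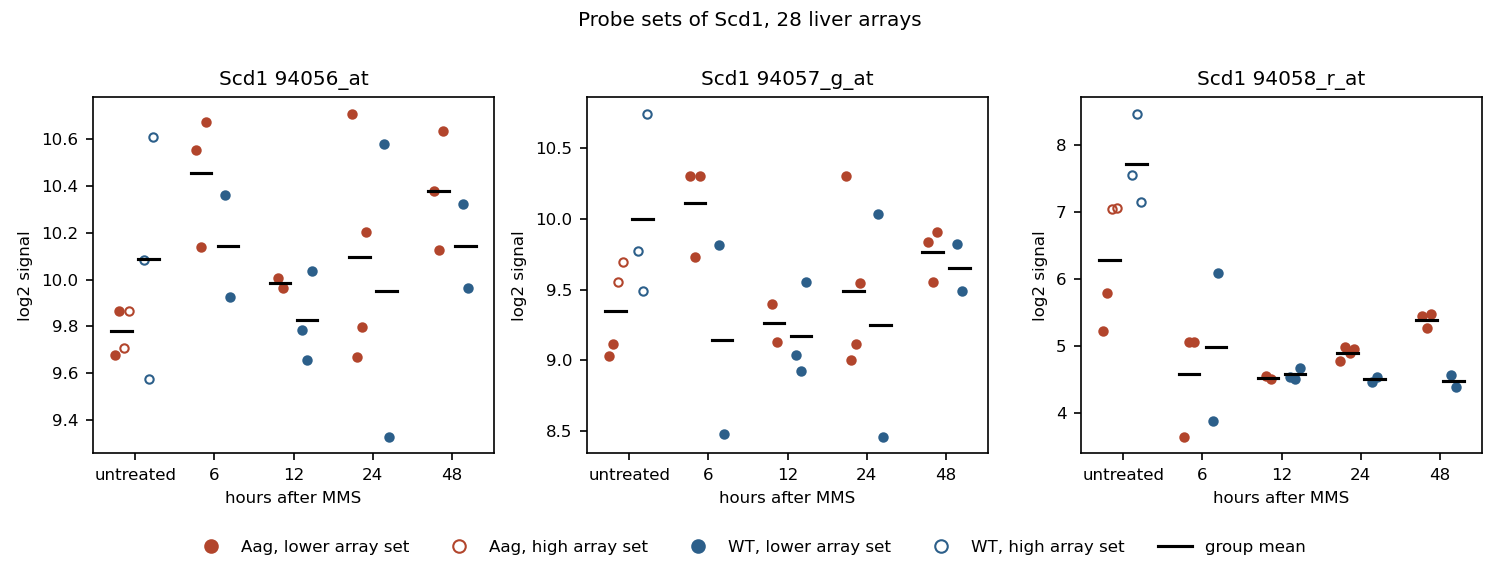
Log2 signal (vertical axis) of the 3 Scd1 probe sets on each array, by time after MMS in hours with untreated at the left, Aag null left of WT at each time. Points are arrays, open ones those of the high array set, and lines are group means; on 94058_r_at the 5 open points lie at or above 7.05 and the other 23 at or below 6.09, and no such gap is seen on the other probe sets.

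Scd1 gave different readings on its 3 probe sets. On 94056_at, WT liver after MMS ranged from 9.33 to 10.58, against 9.57 to 10.61 untreated, with differences of 0.05, -0.26, -0.13 and 0.06 at 6, 12, 24 and 48 h. On 94057_g_at, the differences in WT were -0.86, -0.83, -0.75 and -0.35, with adjusted p of 0.182, 0.133, 0.262 and 0.642. Neither probe set passed at any time. On 94058_r_at, WT liver after MMS was 3.87 and 6.09 at 6 h, 4.54, 4.50 and 4.67 at 12 h, 4.46 and 4.53 at 24 h and 4.57 and 4.39 at 48 h, against 7.55, 8.47 and 7.14 untreated. It fell by 2.74, 3.15, 3.22 and 3.24 on the log2 scale at those times (adjusted p = 0.00141, 8.64e-05, 0.000384 and 0.000338), the only member to change at all 4. Replicates 3 and 4 of untreated Aag null liver, which belong to the high array set, read 7.05 and 7.06, and replicates 1 and 2 read 5.22 and 5.78. Over the 28 arrays 94056_at and 94057_g_at correlated at r = 0.85, and 94058_r_at with them at -0.20 and 0.09. Fitted with that term, its WT differences were -1.19, -1.60, -1.67 and -1.69, with adjusted p of 0.413, 0.208, 0.187 and 0.163, and none passed. At 6 h the difference was -3.86 without WT 6 h replicate 2 and -1.63 without replicate 1, still called, but it was not called with array weights (-2.66, adjusted p = 0.361) or in a fit of only the groups compared (-2.74, adjusted p = 0.0986), settings that called 0 and 30 of all probe sets there. The annotation gives this probe set another sequence record than the other 2 share.

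In Aag null liver no member passed the threshold at any time after MMS. With limma, 0 of 9 passed at 6, 12, 24 and 48 h, where 0.992%, 0.303%, 1.29% and 0.826% of all tested probe sets passed. At an unadjusted p under 0.05 the counts were 3, 3, 3 and 1 of 9, against 1077, 860, 1113 and 1268 of all 7261. The median member stood at 0.31, 0.21, 0.31 and 0.02, beside -0.00, 0.02, 0.02 and 0.01 over all probe sets.

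Thrsp (160306_at) had the largest positive differences. It was 9.57 and 9.54 in Aag null liver at 12 h, and 9.60, 8.91, 8.59 and 9.73 at 24 h, against 6.60, 7.10, 8.93 and 8.48 in untreated Aag null liver. The 12 h arrays lay above all 4 untreated arrays, and the 24 h arrays overlapped with them. The differences were 1.78 (SE 0.53, adjusted p = 0.14) and 1.43 (SE 0.43, adjusted p = 0.0996). The untreated arrays themselves split by array set, with 8.93 and 8.48 in the high set and 6.60 and 7.10 in the other. In the 23 arrays of the lower set alone, with those 2 as the untreated arrays, Thrsp was 2.68 higher at 12 h (SE 0.49, adjusted p = 0.0151) and 2.33 higher at 24 h (SE 0.42, adjusted p = 0.00977), where 0.555% and 1.22% of 7029 probe sets passed. Without the female-typical arrays as well, the 24 h call was lost (2.28, adjusted p = 0.0765) and the 12 h call was not (adjusted p = 0.0246). In the lower set it stood at 1.64 at 6 h (adjusted p = 0.151) and at 1.45 at 48 h (adjusted p = 0.228). Fitted with the array-set term over all 28 arrays, it was 2.71 higher at 12 h (adjusted p = 0.00813) and 2.36 higher at 24 h (adjusted p = 0.00335) in Aag null liver, and 2.74 higher at 24 h in WT liver (SE 0.64, adjusted p = 0.018). Untreated WT liver has no array in the lower set. WT liver at 24 h had 9.60 and 8.92, against 8.27, 7.96 and 8.90 untreated, a difference of 0.88 (SE 0.55, adjusted p = 0.306).

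Srebf1 in Aag null liver was 8.10, 7.44 and 8.16 at 6 h, 8.91 and 8.41 at 12 h and 8.92, 9.06, 8.29 and 8.39 at 24 h, against 7.58, 8.39, 8.05 and 8.03 untreated. The differences were -0.11, 0.64 and 0.65 at 6, 12 and 24 h, with adjusted p of 0.882, 0.299 and 0.117, and 0.21 at 48 h. At 24 h replicates 1 and 2, with the female-typical Cyp2b9 signal, averaged 8.99 on Srebf1 and replicates 3 and 4 averaged 8.34. Fasn showed the same split at 24 h, 7.98 against 6.90, and Acly, 7.50 against 6.84. The other probe sets differed less, as in Me1 (5.44 against 4.92), Thrsp (9.26 against 9.16) and Scd1 94058_r_at (4.87 against 4.92). Replicate 3 of untreated Aag null liver, also female-typical, read 8.05 on Srebf1, within the range of the other untreated arrays. The part of sex in these values was not tested. Gpam differed in Aag null liver by -0.30, -0.14, 0.03 and 0.01 at the 4 times.

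The remaining enzymes passed in no comparison with untreated liver. Acly (160207_at) differed from untreated liver by 0.43, 0.48, 0.33 and 0.02 in Aag null liver at 6, 12, 24 and 48 h, and by -0.01, -0.10, -0.20 and 0.05 in WT liver. Fasn differed by 0.23, 0.49, 0.48 and -0.23 in Aag null liver, and by -0.25, -0.58 and -0.46 in WT liver at 12, 24 and 48 h. Me1 (101082_at) differed by 0.31, -0.41, -0.09 and -0.25 in Aag null liver and by -0.21, -0.30, -0.26 and -0.08 in WT liver. With the array-set term Me1 stood instead at 1.06, 0.34, 0.66 and 0.50 in Aag null liver and at 1.28, 1.19, 1.24 and 1.41 in WT liver, so that all but the Aag null direction at 6 h turned, and none passed. Fasn and Acly in Aag null liver at 48 h turned with that term too, to 0.11 and -0.17, as did Acly in WT at 48 h, to -0.34. In WT liver Srebf1 turned at 12 h, to 0.03, and Fasn at 12, 24 and 48 h, to 0.43, 0.11 and 0.23. Gpam turned there at 24 and 48 h, to 0.04 and 0.16. Scd1 94057_g_at turned in WT at 48 h, to 0.21, and in Aag null liver at 12 h, from -0.08 to 0.19. Thrsp in WT turned at 6 h, to 1.21, and at 12 h, to 1.77, without passing. Me1 in untreated Aag null liver was 4.43 and 4.61 on replicates 1 and 2 and 6.15 and 5.89 on replicates 3 and 4, which include the lowest and the highest value of all 28 arrays. Scd1 94056_at in Aag null liver stood at 0.67 at 6 h and 0.60 at 48 h (adjusted p = 0.22 and 0.242), and 94058_r_at at -1.70, -1.76, -1.38 and -0.89 at the 4 times, with adjusted p of 0.0586, 0.125, 0.0947 and 0.3. With the array-set term 94058_r_at stood there at -0.92, -0.98, -0.61 and -0.11, and none passed.

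**Figure D3:**
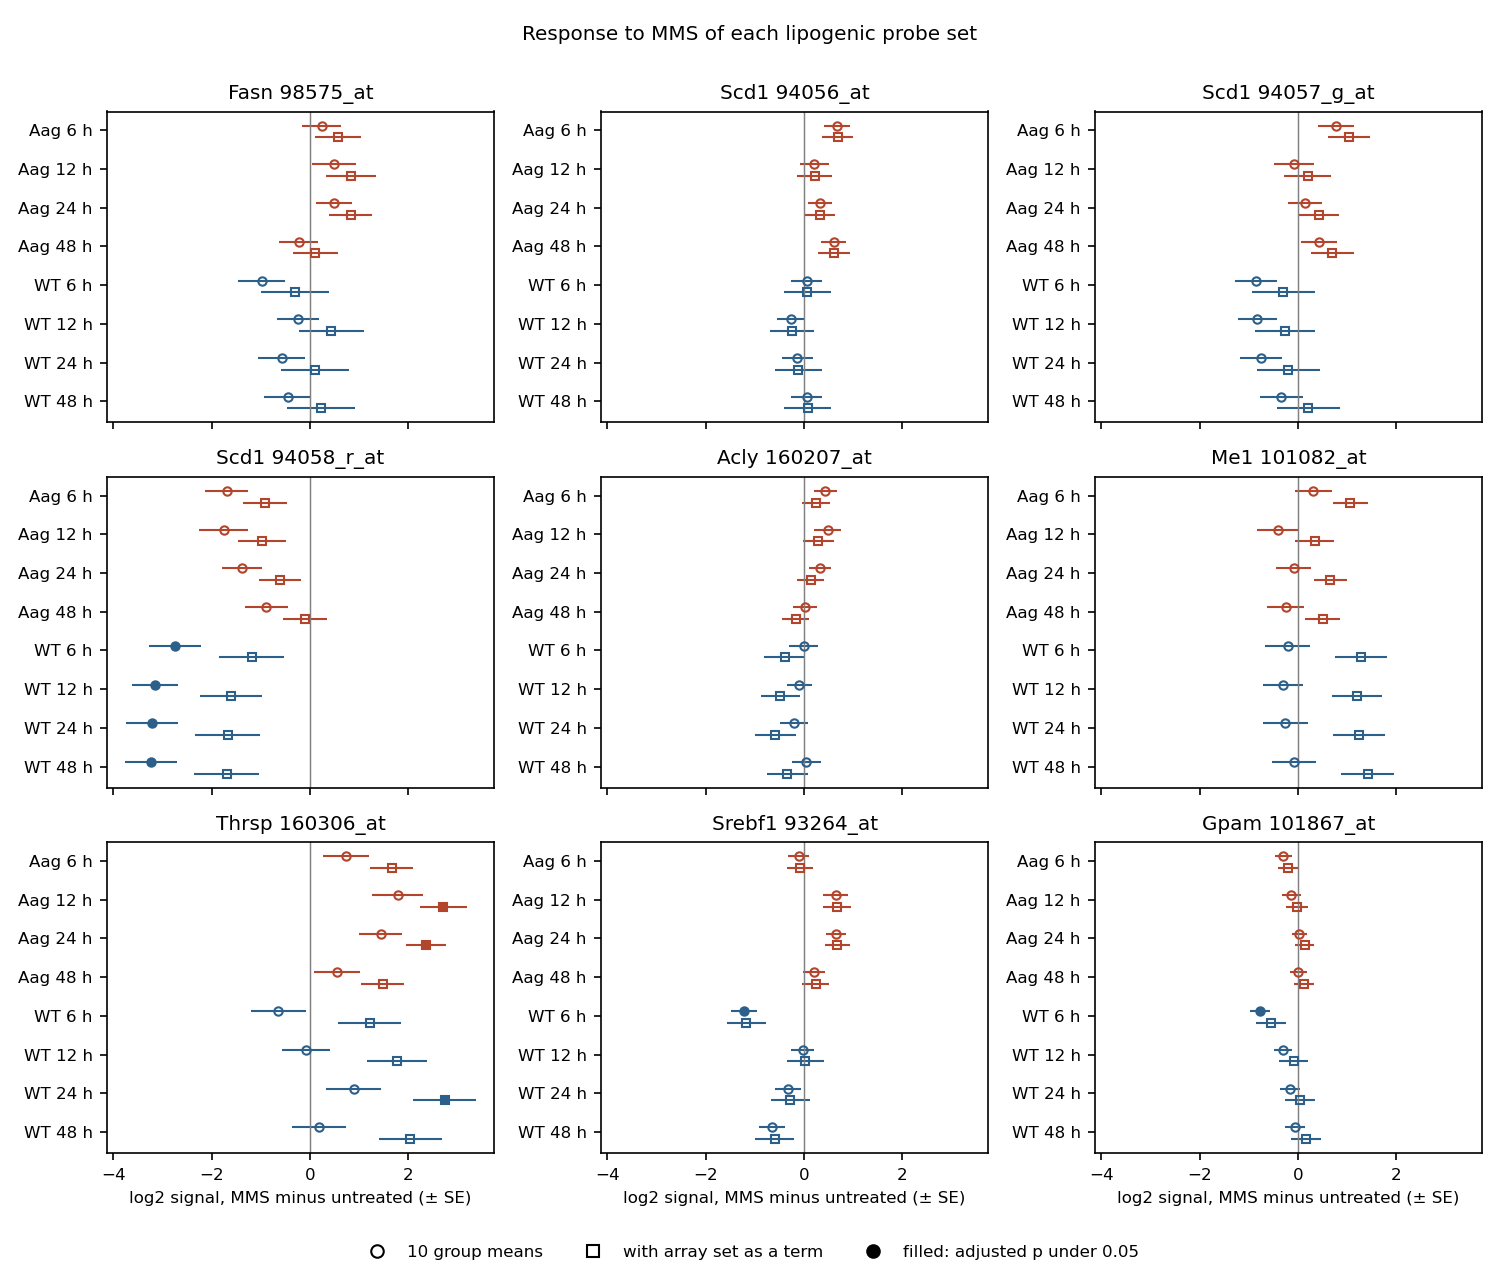
Difference of MMS from untreated liver (horizontal axis, log2 with standard error) of each of the 9 probe sets at 6, 12, 24 and 48 h, Aag null above WT. Circles are fits of group means and squares fits with a term for array set, filled where the adjusted p was under 0.05; the filled circles are Srebf1 and Gpam in WT at 6 h and Scd1 94058_r_at in WT at 4 times, and the filled squares are Thrsp in Aag null liver at 12 and 24 h and in WT at 24 h.

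Between the genotypes no member passed. In untreated liver 0 of 9 differed, where 4.94% of all probe sets did, and 2 had an unadjusted p under 0.05, against 1495 of all 7261. Scd1 94058_r_at was -1.44 in Aag null relative to WT untreated liver (SE 0.44, adjusted p = 0.0588), and Srebf1 -0.48 (SE 0.22, adjusted p = 0.215). All the WT untreated arrays and 2 of the 4 Aag null ones belong to the high set, so array set and genotype are partly confounded there. With a term for array set these were -0.67 and -0.45. Me1, Thrsp and Gpam, at -0.27, -0.60 and -0.09 without that term, turned with it to 0.48, 0.33 and 0.02.

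After MMS the genotypes differed for 0 of 9 members at each time in limma, where 0.11%, 0.0138%, 0% and 0% of all probe sets passed at 6, 12, 24 and 48 h, and 0.138% in the mean of the 4 times. The members with an unadjusted p under 0.05 were 2, 1, 0 and 0 at the 4 times and 1 in the mean, against 333, 87, 82 and 269 of all 7261 at the 4 times and 178 in the mean. Srebf1 in Aag null liver lay above WT at 6 h without overlap, a difference of 0.64 (SE 0.26, adjusted p = 0.924), and averaged 0.42 higher than WT over the 4 times (SE 0.13, adjusted p = 0.769). Thrsp at 12 h was 9.57 and 9.54 in Aag null liver, against 8.14, 7.76 and 8.97 in WT, a difference of 1.26 (SE 0.55, adjusted p = 1). These arrays are all in the lower set.

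The response to MMS itself was set against that of the other genotype in an interaction. None of the 9 passed at 6, 12, 24 or 48 h, where 0.165%, 0.0826%, 0.0275% and 0.248% of all probe sets passed, and 2, 1, 2 and 2 members had an unadjusted p under 0.05, against 712, 609, 782 and 998 of all 7261. The Srebf1 response in Aag null liver exceeded that in WT by 1.12 at 6 h (SE 0.34, adjusted p = 0.238), 0.98 at 24 h and 0.86 at 48 h. The Thrsp response did so by 1.86 at 12 h (SE 0.72, adjusted p = 0.457), and that of Scd1 94058_r_at by 2.35 at 48 h (SE 0.69, adjusted p = 0.132). With the array-set term the Thrsp response at 12 h was 2.71 in Aag null and 1.77 in WT liver. That of Scd1 94058_r_at at 48 h was then -0.11 in Aag null and -1.69 in WT liver. WT and Aag null responses share no array, but the WT one takes its untreated arrays wholly from the high set.

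Within MMS-treated liver the comparisons hold no high-set array. Late times (24 and 48 h) against early ones (6 and 12 h) changed 0 of 9 members in WT, where 0.813% of all passed, 0 in Aag null liver, where 0.317% passed, and 0 in the difference of the genotypes, where 0.0138% passed. The members with an unadjusted p under 0.05 were 2, 0 and 1, against 599, 539 and 296 of all 7261. Thrsp in WT stood at 0.90 late against early (adjusted p = 0.536) and Gpam at 0.42 (adjusted p = 0.301). Later times were also set against 6 h, a comparison chosen after the values were seen. In WT liver 0 of 9 passed at 12, 24 and 48 h, where 0.0689%, 0.358% and 0.537% of all passed, and 2, 3 and 1 members had an unadjusted p under 0.05, against 357, 523 and 652 of all. Srebf1 in WT liver was 1.20 higher at 12 h than at 6 h (SE 0.26, adjusted p = 0.116), and 0.90 at 24 h (adjusted p = 0.256). Gpam in WT liver stood 0.47, 0.60 and 0.71 above 6 h at 12, 24 and 48 h, with adjusted p of 0.923, 0.393 and 0.199. In Aag null liver 0 of 9 passed at 12, 24 and 48 h, where 0.0138%, 0.11% and 0.0964% of all passed, and 1, 1 and 0 had an unadjusted p under 0.05, against 133, 446 and 713 of all. Srebf1 stood at 0.76 at both 12 and 24 h there (adjusted p = 1 and 0.304).

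Group means were ordered within each probe set. Srebf1 ran 1.40 between its lowest group, WT at 6 h (7.26), and its highest, Aag null at 24 h (8.66), with a pooled SD of 0.30. Only the gap between WT at 6 h and its neighbour, WT at 48 h (0.58), exceeded that SD. Gpam ran 0.77, with WT at 6 h lowest (7.11) and untreated WT highest (7.88), and only the gap to Aag null at 6 h (0.38) exceeded its SD of 0.23. Thrsp spanned the widest range of the one-probe-set genes, 1.82 between WT at 6 h (7.73) and Aag null at 12 h (9.55), with a pooled SD of 0.67 and no neighbours further apart than that. Fasn, also lowest in WT at 6 h (6.45) and highest in Aag null at 12 h (7.45), Acly and Me1 had no neighbours further apart than their SDs of 0.57, 0.33 and 0.55.

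Over the 28 arrays the 7 genes, each at its brightest probe set, correlated to differing degrees. Arrays share groups, depth and array set, so these correlations describe the arrays and carry no p. Fasn correlated with Srebf1 at r = 0.70, with Acly at 0.64, with Thrsp at 0.63 and with Gpam at 0.60, and the Fasn to Acly value was 0.81 in the 23 lower-set arrays. Srebf1 correlated at 0.09 with Scd1 and at 0.06 with Me1. The non-member gene whose pattern was most like the mean z-score of the 7 was Elovl6, the elongase that extends palmitate (r = 0.765 over 28 arrays, 0.827 over 23), chosen as the highest of all genes tested. Over the 10 group means, however, Elovl6 stood at 0.508 and Gpld1 was highest at 0.917. The others in order over the 28 arrays were Gpld1 (0.717), Pdk1 (0.689), Stk38 (0.688), Fdft1 (0.678), a cholesterol synthesis enzyme, and Smarcd2 (0.658). Taken singly, the most alike were Fdft1 for Fasn (0.746), Elovl6 for Scd1 (0.585) and for Thrsp (0.769), Mid1ip1 for Acly (0.686), Wrnip1 for Me1 (0.784), Prpf8 for Srebf1 (0.763) and Alad for Gpam (0.779). Mid1ip1 encodes a protein related to Thrsp that promotes fatty acid synthesis.

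**Figure D4:**
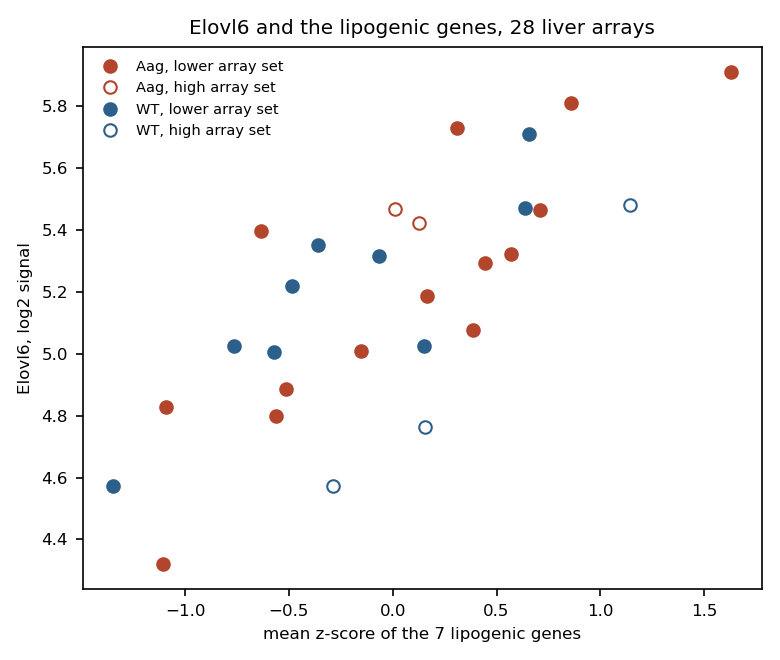
Elovl6 log2 signal (vertical axis) against the mean z-score of the 7 genes (horizontal axis), 1 point per array, 28 arrays. The points rise together with r = 0.765, and Elovl6 is shown because this was the highest of all non-member genes tested.

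The other genes of the pathway were counted from lists that hold none of the members. Among all tested probe sets the shares in WT liver were 8.26% higher and 10.1% lower at 6 h, 11.6% and 10.7% at 12 h, 7.2% and 8.17% at 24 h and 7.4% and 9.21% at 48 h. Of 19 listed genes of fatty acid synthesis, elongation and desaturation, 11 were on the array and 9 tested. In WT liver 0 rose and 1 fell at 6 h, 1 rose and 1 fell at 12 and at 24 h, and 1 rose and 2 fell at 48 h. These shares are near those of all probe sets, except that 2 of 9 at 48 h is above 9.21%. In Aag null liver none passed at any time. In untreated liver 1 was lower in Aag null than in WT, where 2.77% of all probe sets were. Elovl3, an elongase of very long chain fatty acids, was called lower in WT liver at 12 h (adjusted p = 0.00384), with a mean of 2.83, against 4.05 untreated. Both means lie under the array median of 4.10, so no size of change is given. Hacd3, a dehydratase of chain elongation, rose by 0.63 at 48 h (adjusted p = 0.0193). Elovl1 fell by 0.47 at 48 h (adjusted p = 0.0418), and Elovl2 stood at 0.82 at 12 h (adjusted p = 0.0898). With a term for array set Elovl3 and Hacd3 kept passing, and Elovl1 did not (-0.33, adjusted p = 0.442). Elovl3 met the brightness filter in only 26 of the 28 fits that leave out 1 array. Without untreated WT replicate 1 or WT 48 h replicate 2 the Hacd3 call was lost (adjusted p up to 0.169), and that of Elovl1 without any of 12 arrays (up to 0.171).

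Of 7 tested genes of NADPH and carbon supply, 1 rose in Aag null liver at 6 h, where 0.441% of all probe sets rose. None passed in WT, where 15.4% to 22.3% of all did. The gene that rose was Pklr, liver pyruvate kinase, at 0.60 (adjusted p = 0.0489). Its call was lost when any of 19 of the 28 arrays was left out, with an adjusted p of up to 0.188. It was lost as well with the array-set term (0.45, adjusted p = 0.394). Pgd, an NADPH-making enzyme of the pentose phosphate pathway, stood at 0.48 (adjusted p = 0.0501), Tkt at 0.36 and Pgls at -0.39 at 48 h. Of 8 tested genes of triglyceride assembly, 1 rose in WT at 6 h, 1 at 12 h and 2 at 24 h, against 8.26%, 11.6% and 7.2% of all probe sets. Lpin1, a phosphatidate phosphatase, rose by 2.64 at 24 h (SE 0.68, adjusted p = 0.0116), lost without either 24 h array (adjusted p up to 0.114). Lpin2 rose by 0.91 at 24 h (adjusted p = 0.0267), lost without 24 h replicate 1 or untreated WT replicate 2 or 3 (up to 0.394). Mttp, which loads lipid onto lipoproteins, was called higher at 6 h (adjusted p = 0.0304), with a mean of 3.71, against 2.57 untreated. Both means lie under the array median of 4.10, so no size of change is given. The Mttp call was lost without untreated WT replicate 2 (0.115) and with the array-set term (adjusted p = 0.333). Mttp too met the brightness filter in only 26 of the 28 fits that leave out 1 array. Agpat3 stood at -0.39 in Aag null liver at 6 h (adjusted p = 0.121).

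Of 16 tested regulators of lipogenesis, 2 rose in WT at 6 h, 2 at 12 h and 1 at 24 h, near the 8.26%, 11.6% and 7.2% of all probe sets, and none passed in Aag null liver. Mlx, the partner of ChREBP, rose by 0.55 at 6 h (adjusted p = 0.00246), and Rxra, a nuclear receptor partner, by 0.97 at 12 h (adjusted p = 0.00794). Neither passed with the array-set term, where Mlx stood at 0.42 (adjusted p = 0.216) and Rxra at 0.15 (adjusted p = 0.896). Mid1ip1 stood at 0.64 at 12 h (adjusted p = 0.0645). Nfyb, a subunit of NF-Y, did not pass at 6 h (adjusted p = 0.0713). Its means of 4.04 at 6 h and 3.27 untreated both lie under the array median of 4.10. Of 7 tested genes that fasting raises, 1 rose and 2 fell in WT at 6 h, 2 and 3 at 12 h, 1 and 2 at 24 h and 1 and 3 at 48 h. Among all probe sets 8.26% rose and 10.1% fell at 6 h, 11.6% and 10.7% at 12 h, 7.2% and 8.17% at 24 h and 7.4% and 9.21% at 48 h. In Aag null liver none passed. In untreated liver 1 was higher and 1 lower in Aag null than in WT, against 2.18% and 2.77% of all probe sets. In the interaction at 12 h 1 passed, against 0.0826% of all. Cpt1a, which moves fatty acids into mitochondria, rose by 1.29 at 12 h (adjusted p = 0.000263) and passed with the array-set term as well (1.89). G6pc, of glucose output, fell by 2.01 at 48 h (adjusted p = 0.0027), Igfbp1 fell by 2.74 at 12 h (adjusted p = 0.0109) and Pdk4 by 0.61 at 24 h (adjusted p = 0.0202), and none of these 3 passed with that term. G6pc then stood at -1.79 (adjusted p = 0.132), Igfbp1 at -0.10 (adjusted p = 0.975) and Pdk4 at -0.43 (adjusted p = 0.391). The means of Igfbp1 at 12 h (2.86) and of Pdk4 at 24 h (3.83) lie under the array median of 4.10, so the sizes of their falls are uncertain. The Igfbp1 call was lost without WT 12 h replicate 1 (adjusted p = 0.0524), and that of Pdk4 without either WT 24 h array or untreated WT replicate 2 (up to 0.219).

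Cell type markers were set beside these values. All 9 hepatocyte markers on the array were tested, with a summed level of 13.94 to 14.35 over the 28 arrays. In WT liver 1 was called lower at 6, 12 and 24 h and 2 at 48 h, where 8.17% to 10.7% of all probe sets were. In Aag null liver 1 was called higher at 12, 24 and 48 h, and 1 lower at 24 and 48 h. There 0.303%, 1.29% and 0.826% of all passed. Of 10 listed adipocyte markers 7 were on the array and 4 tested, and the summed level was 7.51 to 8.51 in WT liver at 6 h, against 7.93 to 8.05 untreated, and 7.48 to 8.17 over the Aag null arrays. The levels differed widely between markers. Adipoq, Cidec and Pparg were at 1.69 to 2.86, near the bottom of the array's scale, in every group, and the brightest Lep probe set was at 6.72 to 8.18. Of the 4 tested, 1 was called lower in WT liver at 12 h, where 10.7% of all probe sets were. No other MMS response of these markers passed in either genotype. The macrophage sum was 8.04 to 8.29 in WT liver at 6 h, against 8.10 to 8.67 untreated, and the endothelial sum 8.05 to 8.20, against 8.45 to 8.65. At 12 h the WT macrophage sum was 7.77 to 8.23, and 3 of 8 tested markers were called lower, against 10.7% of all. The WT endothelial sum was 8.03 to 8.16 at 12 h and 8.07 to 8.31 at 24 h. In Aag null liver the endothelial sum was 8.17 to 8.28 at 6 h and 8.18 to 8.25 at 12 h, against 8.335 to 8.57 untreated. It overlapped the untreated range there at 24 and 48 h. Of 4 tested endothelial markers 1 was called lower in WT at 6, 12 and 24 h, against 10.1%, 10.7% and 8.17% of all. The stellate cell and bile duct sum was 7.37 to 8.49 in WT liver at 6 h, against 7.58 to 7.81 untreated. Of its 3 tested markers 1 was called lower at each WT time and 1 higher at 12 h. In Aag null liver at 12 h the macrophage sum was 8.59 to 8.63, against 8.55 to 9.10 untreated. The part of these cells in the members' values was not tested.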

How the data were processed

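Liver RNA was measured on 28 arrays. The deposited values are log2 signals made by the authors, 1 per probe set on each array. No label names the unit, which was read as log2 from a range of 0.689 to 13.16. The image reading, background correction and probe summary used are not stated in any source used here. The number of arrays limits the precision. All 28 value columns were used.

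After 66 control probe sets were removed, the other 12422 were quantile normalised, since array medians spanned 0.215. The 7261 probe sets above the array median on at least 2 arrays were fitted with limma 3.58.1 in R 4.3.3, with 10 group means, 18 residual degrees of freedom, variance moderated along mean signal (trend), and p-values adjusted by Benjamini-Hochberg over all 7261 within each comparison. Adjusted p under 0.05 was called. The fit was tested on simulated data. Figures used Python 3.11.15 and matplotlib 3.10.9. Symbols came from the array annotation, where 10855 probe sets have a single symbol, 396 have several and 1237 have none.

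Every member probe set was named, with up to 4 genes of smallest adjusted p per pathway list, and the 6 genes most like the members' mean and the most like each member. Members and lists were chosen with earlier results of these data known, and the comparisons with 6 h, the fit without replicate 1 of both genotypes at 6 h and the fits that join array set with the female-typical pattern were chosen after seeing the data. The other alternatives changed the scaling, the brightness filter, the probe set rule, the arrays fitted, their weights, the replicate block or the array set. Replicate numbers were taken as not pairing samples.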

Additional observations from a re-analysis of the deposited data

How the results depend on the processing

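The 6 member calls in the WT responses became 2 with the brightest probe set of each gene. That setting called 16.6%, 21.1%, 13.8% and 14.8% of all probe sets at the 4 times. The count was 3 with array weights and 3 with only the groups compared. With a term for array set none of the 6 passed, and the 1 call was another, Thrsp at 24 h, which rose (2.74, adjusted p = 0.018). With terms for array set and for the female-typical pattern the count was also 1. Leaving out 1 array gave 6 to 7. In the Aag null responses 0 calls became 5 with array weights (which called 24%, 12.5%, 10.5% and 21.3% of all probe sets at the 4 times), 2 with the array-set term, 2 in the lower set only, 2 with both terms, 1 in the lower set without female-typical arrays, and 2 without the 2 alike 6 h arrays (replicate 1 of each genotype). Leaving out 1 array gave 0 to 3, all of Scd1 94058_r_at, with 3 without Aag untreated replicate 1 or either WT 6 h replicate and 1 without Aag untreated replicate 2.

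In untreated liver 0 calls became 1 with no brightness filter, where 9.36% of all 12422 probe sets passed. The count was also 1 with the mean of a gene's probe sets, without female-typical arrays and without the 2 alike 6 h arrays. It was 0 to 1 when 1 array was left out. The genotypes after MMS gave 0 to 1, interactions 0 to 1, and 1 without the 2 alike arrays. Late against early gave 1 with array weights (in Aag null liver, where they called 19.1% of all) and 0 without any single array. Times against 6 h gave 8 with array weights (which called 8.44%, 21.3% and 29.2% of all probe sets in Aag null liver at 12, 24 and 48 h), 3 without the 2 alike arrays and 0 to 1 without any single array. The cause was not tested. Counts in this section with no share beside them were not set against all probe sets.

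Replicate numbers were taken as not pairing the samples. Same-numbered deviations correlated at -0.732 to 0.910 over 19 comparisons. In none of the 7 with 3 or more pairs did every pair exceed 0.1. Comparisons with 2 pairs were not judged in this way. Among them, Aag null against WT at 6 h had its 2 pairs at 0.77 and 0.91. With the replicate number as a block, 1 member passed in the Aag null responses (Thrsp at 12 h) and 1 in untreated liver, and Scd1 94058_r_at at 12 against 6 h in Aag null liver turned to 0.0335.

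Leaving out 1 array put that difference between -0.53 and 0.18, above 0 without Aag 6 h replicate 2 or 3. In WT at 24 and 48 against 6 h the probe set ranged between -1.58 and 0.62 and between -1.60 and 0.60, above 0 without WT 6 h replicate 2. Mid1ip1 at WT 12 h turned to -0.00112 with the array-set term and -0.0299 with both terms, and Igfbp1 to 0.29 with both. The lower set holds no WT untreated array, so it gives no value for the WT responses, untreated liver or interactions.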
